A study of Mus musculus with 4 samples.

Results

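The mRNA deadenylation, decapping and decay machinery was followed here through 48 genes, chosen by name from the 55401 genes of the deposited expression table. The list covers the CCR4-NOT complex (11 genes), the deadenylases Pan2, Pan3 and Parn (3 genes), decapping and 5′ to 3′ decay (8 genes), the RNA exosome (10 genes), nonsense-mediated decay (7 genes), proteins that bind AU-rich elements or stem-loops in 3′ UTRs (5 genes), and the BTG and TOB adaptors (4 genes). All 48 were found in the table under their gene symbols, and all 48 passed the filter on low counts that left 17260 genes to test. None of the 48 passed edgeR's quasi-likelihood test between the macrophages labelled Mettl3 knockout and control, and neither did any of the 17260 tested genes (0%). The fitted changes of the 48 ran from a log2 fold change of -0.36 for Edc4 to 0.34 for Cnot6l. The wider differences lay between the libraries numbered 1 and those numbered 3. With genotype as a term in the fit, Btg1, Tob1 and Zfp36l1 were 1.72-fold to 2.18-fold higher in number 1. Of the members, 0 passed edgeR's test of that difference.

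The study compared bone marrow-derived macrophages of C57BL/6 mice, 8 weeks old, of the genotypes Mettl3fl/fl (2 control libraries) and LysM-cre, Mettl3fl/fl (2 knockout libraries). Both groups carried the floxed Mettl3 alleles, and the Cre driver LysM acts in myeloid cells such as macrophages and neutrophils. The cells had been grown with M-CSF, and in both groups MC38 cells, from a mouse colon carcinoma, had been added for 24 h before poly(A) RNA was sequenced. The submitters speak of biological replicates without saying that each came from its own animal, so p-values measure the spread between these libraries.

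Mettl3 is the catalytic subunit of the enzyme complex that writes N6-methyladenosine (m6A) into mRNA. A marked transcript can be bound by YTHDF proteins, which recruit the CCR4-NOT complex to shorten its poly(A) tail. A transcript that has lost its tail is decapped by Dcp2 and digested from the 5′ end by Xrn1, or digested from the 3′ end by the exosome. In macrophages the same enzymes are brought to inflammatory transcripts by proteins that recognise AU-rich elements, of which tristetraprolin (encoded by Zfp36) is the best known.

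Total counts ran from 55100415 to 79209870 per library. Mettl3 measured 18.3 CPM in control 1 and 23.2 in control 3, against 13.9 in knockout 1 and 19.6 in knockout 3 (CPM are counts scaled to library size with TMM factors), so the groups overlapped (log2 fold change -0.31 ± 0.27 SE, edgeR adjusted p = 1). The labels do not say which part of Mettl3 is deleted, and the counts are per gene and not per exon. The extent of the deletion in these cells was thus not tested, and the groups are named by their labels. The libraries also differed by number: Ddx3y, a Y-linked gene, had 72.1 and 89.1 CPM in number 1 of each genotype and 0.307 and 0.139 in number 3, while Xist had 0.589 and 0.624 against 1350 and 1160. The 8 macrophage markers examined, among them Lyz2 and Adgre1, were well above the filter in every library. Of 8 epithelial markers that MC38 cells could bring, Epcam, Krt8, Krt18, Cldn4 and Krt20 were at a count of 0 in all 4 libraries, and of the rest Krt19 alone passed the filter, at 0.387 to 1.2 CPM. Fibroblast marker transcripts summed to 427 and 812 CPM in the controls and 336 and 503 in the knockouts, and the 4 tested neutrophil markers to 14.8 to 26.4.

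One sequence element was spread unevenly over the roles, and it is shown first because the proteins that bind it are themselves members. The nonamer TTATTTATT, the sequence that tristetraprolin and its relatives bind as RNA, was searched on the sense strand of the 3′ UTR of each gene's longest coding transcript. It was present in 7 of the 48 members (14.6%) against 7.89% of 13182 tested genes with an annotated 3′ UTR. The 3′ UTRs of these 7 were long, with a median of 4004 bases, against 1047 over the 48 members and 1132.5 over the tested genes. The part of length in the share of carriers was not tested. Of the 5 AU-rich element and stem-loop binding proteins, 4 carried it: the 3 Zfp36 family members and Elavl1. The other carriers were Cnot6l, Edc3 and Xrn1. None of the 10 exosome genes and none of the 7 nonsense-mediated decay genes held the nonamer or the shorter heptamer TATTTAT, which it contains; their 3′ UTRs were also short for the exosome genes (median 499.5 bases, against 1132.5 over the tested genes). The heptamer stood in 17 of the 48 members (35.4%) against 29.5% of tested genes. The windows below are 29 bases of the sense strand, 5′ to 3′, from GENCODE M21 transcripts (GRCm38), with the nonamer in capitals; where a 3′ UTR held several, the one nearest the stop codon is shown. Tnf, the best known target of tristetraprolin, is added for comparison.
Zfp36, minus strand of chr7:28376951-28376979: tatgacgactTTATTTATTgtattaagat
Zfp36l1, minus strand of chr12:80108167-80108195: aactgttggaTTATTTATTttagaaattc
Zfp36l2, minus strand of chr17:84184914-84184942: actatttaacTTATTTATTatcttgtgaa
Elavl1, minus strand of chr8:4285788-4285816: gtcatgaaaaTTATTTATTtatttattta
Cnot6l, minus strand of chr5:96071161-96071189: agggaagagaTTATTTATTtttgtttcct
Edc3, plus strand of chr9:57750553-57750581: agcttctagcTTATTTATTggcttgcctt
Xrn1, plus strand of chr9:96055253-96055281: actagaaaagTTATTTATTtgattaagcc
Tnf, minus strand of chr17:35199689-35199717: tttgcacttaTTATTTATTatttatttat
The Elavl1 3′ UTR held 8 nonamers, counted with overlaps, and that of Tnf held 5, while each of the other 6 members held 1. The fitted log2 fold changes of the 7 carriers had a median of -0.17, with 4 below 0, against -0.04 over the 41 members without it and 0.01 over all 1040 tested carriers. The 4 below 0 were the 4 binding proteins, and the carriers' median was -0.23 within the libraries numbered 1 and 0.04 within those numbered 3. The core of the m6A consensus, GGACT, occurred at a median of 0.857 per kilobase of the same transcripts, over their whole length, in the members and 1.05 in the tested genes. These matches describe letters in the annotation, and no binding or methylation was measured in these libraries.

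On the scale of FPKM, which corrects for gene length, the members spanned a mean level of 1.24 (Dcp1b) to 86.2 (Btg1), with a median of 5.88 against 2.69 over all tested genes. After Btg1, an adaptor, the highest were the binding proteins Zfp36l2 at 53.4 and Zfp36l1 at 51.5 FPKM. Zc3h12a was at 36.5 FPKM and encodes regnase-1, an endonuclease that cuts stem-loops in inflammatory transcripts. The rest of both groups were lower, with Elavl1 at 4.13, Tob1 at 5.96 and Tob2 at 7.96 FPKM. Xrn2, the nuclear 5′ to 3′ exonuclease, was at 36.7 FPKM, and its cytoplasmic counterpart Xrn1 at 3.56. The catalytic deadenylase subunits differed among themselves, with Cnot8 at 20.4, Cnot6 at 9.98, Cnot7 at 5.38 and Cnot6l at 5.3 FPKM. The exosome genes had a median of 2.88 FPKM, from Exosc7 at 1.41 to Exosc10 at 12.4. Together the 48 genes took 0.354% and 0.321% of the counts, before scaling, in controls 1 and 3 and 0.328% and 0.327% in knockouts 1 and 3.

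**Figure D1:**
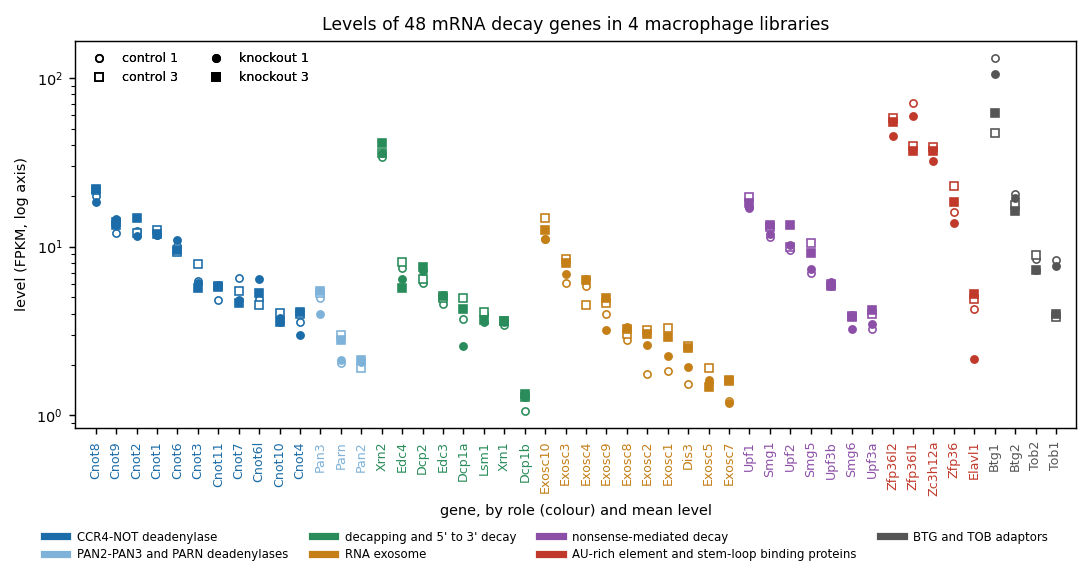
Level of each of the 48 decay genes in each library (FPKM, log axis), ordered by role (colour) and mean level; each symbol is 1 library. Most genes keep their 4 libraries close together between 1 and 40 FPKM, and the widest vertical spreads are those of Btg1, Elavl1 and Tob1.

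Across the machinery as a whole the knockout and control libraries were close. In edgeR's test 0 of the 48 members passed an adjusted p of 0.05, as did 0 of the 17260 tested genes (0%), and the adjusted p was 1 for each member. At an unadjusted p under 0.05 the members numbered 0, beside 391 tested genes (2.27%). DESeq2 called 74 genes (0.416% of the 17786 to which it gave an adjusted p), and no member was among them. With the library number as a replicate block, edgeR again called 0 genes (0%), with 929 tested genes at an unadjusted p under 0.05, of which Cnot6l was the single member. The members' fitted log2 fold changes were above 0 for 22 and below 0 for 26, with a median of -0.04 against -0.00 over the tested genes. Their sizes were small: the median absolute log2 fold change was 0.118, against 0.201 over the tested genes and 0.139 over the 10272 tested genes within the members' range of FPKM. No member exceeded 0.5, beside 9.13% of the genes in that range. The 95% interval of the fold change used a standard error derived from edgeR's test statistic. It lay within a 2-fold change either way for 42 of the 48 members (87.5%), and for 66.5% of the genes in that range. The 6 members whose interval reached past 2-fold were Dcp1a, Exosc2, Zfp36l1, Elavl1, Tob1 and Btg1. With the replicate block 1 member, Elavl1, had an interval past 2-fold (-1.25 to 0.39).

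Where the 2 groups did not overlap, members lay on both sides. Both knockouts stood above both controls for 11 members (22.9%, against 13.1% of tested genes), which were Cnot6l, Cnot11, Dcp1b, Dcp2, Edc3, Xrn1, Xrn2, Exosc4, Exosc8, Upf2 and Upf3b. On the FPKM values 7 of these 11 remained: Cnot6l, Dcp1b, Dcp2, Edc3, Exosc4, Exosc8 and Upf2. Both knockouts stood below both controls for 7 members (14.6%, against 13.4%), which were Cnot3, Cnot7, Edc4, Lsm1, Zfp36l2, Zc3h12a and Tob2. The balance of the 2 sides depended on the scaling: 8 members were above and 9 below with upper-quartile scaling, and 7 above and 8 below on FPKM. Within library number 1 and within library number 3 the genotype difference had the same sign for 28 members (58.3%, against 53% of tested genes), and across the 48 genes the 2 sets of differences had a Pearson r of 0.147, with genes not being independent replicates.

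**Figure D2:**
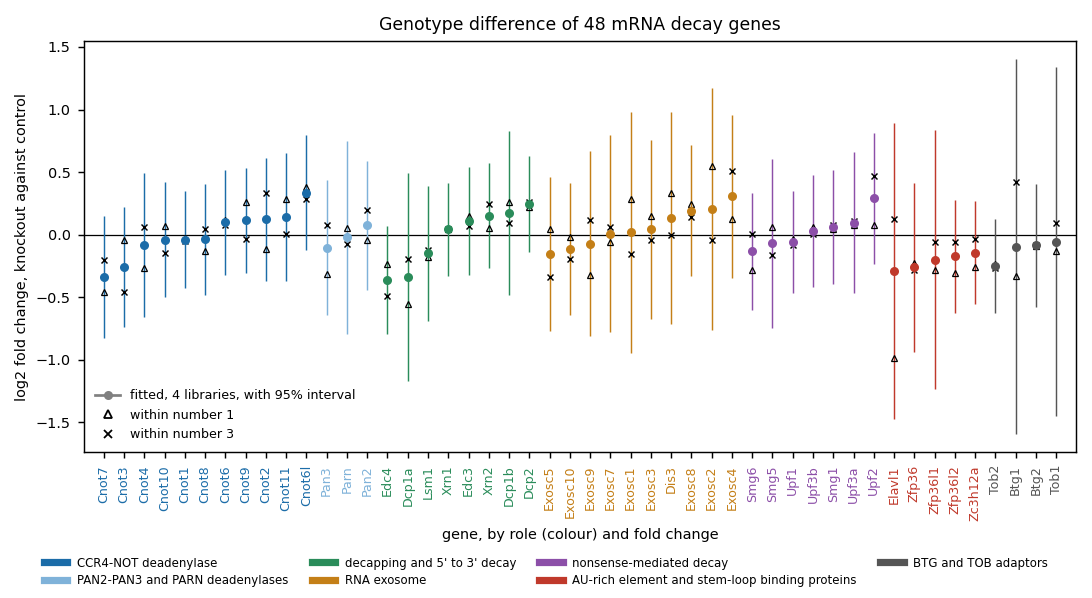
Log2 fold change of knockout against control for each of the 48 decay genes, ordered by role (colour) and size; filled points with bars are the edgeR fit with its 95% interval, triangles the difference within the libraries numbered 1 and crosses that within those numbered 3. The fitted values lie between -0.36 and 0.34, the bars include 0 for every gene, and the within-number difference of Elavl1 at -0.99 is the farthest from its fit.

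The CCR4-NOT complex is the main cytoplasmic deadenylase, built on the scaffold Cnot1. The scaffold itself was at 227 and 237 CPM in controls 1 and 3 and 223 and 228 in knockouts 1 and 3, a log2 fold change of -0.04 ± 0.15 SE. Of its nucleases, Cnot6l measured 57 and 50.7 CPM in the controls against 74.1 and 61.9 in the knockouts, so that both knockouts were higher (log2 fold change 0.34 ± 0.17 SE, 95% interval -0.13 to 0.80, edgeR adjusted p = 1). Cnot7, a nuclease of the other catalytic family, measured 43 and 35.1 CPM in the controls against 31.2 and 30.4 in the knockouts, where both were lower (-0.34 ± 0.18, interval -0.83 to 0.15). Its close paralogue Cnot8 was at 59 and 62.4 in the controls and 53.8 and 64.5 in the knockouts, with overlapping groups. The nucleases with the widest fitted differences, Cnot6l and Cnot7, thus lay on opposite sides of 0, and neither passed the test.

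Cnot3, which with Cnot2 anchors the complex's regulatory module, measured 49.9 and 62.1 CPM in the controls against 48.5 and 45.2 in the knockouts. Both knockouts were lower, the first by little, and the log2 fold change was -0.26 ± 0.18 SE. Cnot9, the subunit through which several RNA-binding proteins dock, was at 51.9 and 58.7 in the controls and 62.3 and 57.3 in the knockouts, with overlap. The remaining subunits Cnot2, Cnot4 (an E3 ubiquitin ligase), Cnot6, Cnot10 and Cnot11 had log2 fold changes from -0.09 (Cnot4) to 0.14 (Cnot11). Of the 11 genes, 5 were above 0 and 6 below.

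Pan2 and Pan3 form the deadenylase that trims long tails first, and Parn is a separate poly(A)-specific nuclease. Pan3, the adaptor that binds the tail's coat protein, was at 83 and 86.7 CPM in the controls and 66.6 and 91.3 in the knockouts. Parn was at 12.4 and 17.8 in the controls and 12.8 and 16.9 in the knockouts. In both genes the groups overlapped, and for Parn the libraries numbered 3 were the higher ones in both genotypes. The log2 fold changes of Pan2, Pan3 and Parn were 0.07, -0.10 and -0.02.

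Decapping removes the 5′ cap and opens the transcript to Xrn1. This group had the most members with groups apart: 5 of 8 with both knockouts higher (62.5%, against 13.1% of tested genes) and 2 of 8 with both lower (25%, against 13.4%). On FPKM the higher ones were 3 of 8, without Xrn1 and Xrn2. All 8 had the same sign of genotype difference in both library numbers, though several of these differences were under 0.10. Groups that lie apart share their sign by construction, so only Dcp1a, whose groups overlapped, was free to differ. Dcp2, the decapping enzyme, measured 59.1 and 61.2 CPM in the controls against 69.1 and 73.5 in the knockouts. The higher values lay in both knockouts (log2 fold change 0.24 ± 0.14 SE, interval -0.14 to 0.63, edgeR adjusted p = 1). Edc4, the scaffold that joins Dcp2 to its activators, stood at 46.1 and 49 in the controls and 39.2 and 34.9 in the knockouts, lower in both (-0.36 ± 0.16, interval -0.79 to 0.07, adjusted p = 1). Exons of Edc4 overlap those of Nrn1l on the same strand, and how such reads were counted is not stated.

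Dcp1a, the cofactor that activates Dcp2, was at 34.7 and 45.1 CPM in the controls and 23.6 and 39.4 in the knockouts. The groups overlapped because control 1 lay below knockout 3, and the interval of its log2 fold change was wide (-0.34, interval -1.17 to 0.49). Without knockout 1 the value was -0.000495, and without knockout 3 it was -0.76. Its paralogue Dcp1b, the lowest of the members by FPKM, was at 7.64 and 8.91 in the controls and 9.15 and 9.5 in the knockouts (0.17 ± 0.25). Xrn2 was at 152 and 156 in the controls and 158 and 184 in the knockouts, the gap between the groups resting mostly on knockout 3. Edc3, a further decapping enhancer, had a log2 fold change of 0.11, Xrn1 of 0.04, and Lsm1, part of the ring that binds shortened tails, of -0.15.

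The RNA exosome is a barrel of structural subunits with the nucleases Dis3 and Exosc10 attached. Exosc4, a barrel subunit, measured 12.8 and 9.67 CPM in the controls against 14 and 13.8 in the knockouts, and Exosc8, another, at 13.7 and 14.5 against 16.2 and 15.9. Both were higher in both knockouts, by log2 fold changes of 0.31 ± 0.25 SE and 0.19 ± 0.20. Exosc10, the nuclear nuclease, was at 45.1 and 58.1 in the controls and 44.5 and 50.9 in the knockouts, with overlap. Exosc3, a cap subunit, was at 9.11 and 12.3 in the controls and 10.1 and 11.9 in the knockouts. For the last pair the number of the library set the order: the libraries numbered 3 were higher in both genotypes. The other exosome genes Exosc1, Exosc2, Exosc5, Exosc7, Exosc9 and Dis3 had log2 fold changes from -0.15 (Exosc5) to 0.20 (Exosc2), and 7 of the 10 were above 0.

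Nonsense-mediated decay removes transcripts with a premature stop codon through the helicase Upf1, which the kinase Smg1 phosphorylates. Upf1 was at 88.6 and 99.4 CPM in the controls and 86.5 and 94 in the knockouts, and Smg1 at 306 and 345 against 315 and 364. Both had overlapping groups and log2 fold changes of -0.06 and 0.06. Upf2, which bridges Upf1 to the exon junction complex, stood at 58.6 and 59.8 in the controls and 61.8 and 82.8 in the knockouts, with knockout 3 well above the rest (0.29 ± 0.20 SE). Upf3a, Upf3b, Smg5 and the endonuclease Smg6 lay between -0.13 (Smg6) and 0.09 (Upf3a).

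The 5 binding proteins that select AU-rich or stem-loop transcripts each had a log2 fold change below 0, from -0.14 for Zc3h12a to -0.29 for Elavl1, with a median of -0.20. The median was -0.28 within the libraries numbered 1 and -0.06 within those numbered 3. Zfp36 measured 62.1 and 86.9 CPM in the controls against 53 and 71.4 in the knockouts. It was lower in the knockout within each number, by 0.23 and 0.28 on the log2 scale, while the groups overlapped (-0.26 ± 0.26 SE). Zfp36l2 was at 220.2 and 225 in the controls and 178 and 216 in the knockouts, lower in both knockouts, knockout 3 by little (-0.17 ± 0.17). Zfp36l1 was at 238 and 129 in the controls and 196 and 123 in the knockouts, and its order followed the number more than the genotype. Zc3h12a was at 123 and 123 in the controls and 102 and 119.7 in the knockouts.

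Elavl1 encodes HuR, which binds AU-rich elements and is known to stabilise transcripts. It was chosen for a full description after its values were seen: 49.4 and 55.5 CPM in the controls, 24.9 in knockout 1 and 60.7 in knockout 3. Knockout 1 thus stood alone at a level about 1 log2 unit below control 1, while knockout 3 was the highest of the libraries. The within-number differences were -0.99 and 0.13, and the fitted log2 fold change of -0.29 became -1.07 without knockout 3 and 0.23 without knockout 1.

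The BTG and TOB proteins link CCR4-NOT to poly(A)-binding protein and hold back proliferation. Tob2 measured 63 and 65.2 CPM in the controls against 53.6 and 54.3 in the knockouts, lower in both and by near the same amount within each number (-0.25 ± 0.14 SE, interval -0.63 to 0.13, edgeR adjusted p = 1). Btg1 was at 773 and 274 in the controls and 614 and 366 in the knockouts, and Tob1, described after its values were seen, at 21.4 and 9.56 against 19.6 and 10.2. Btg2 was at 63 and 52.8 in the controls and 59.2 and 49.8 in the knockouts. For these 3 genes both libraries numbered 1 stood above both numbered 3, and the fitted genotype difference was smaller than that gap. For Btg1 the fit joined differences of opposite sign, -0.33 within number 1 and 0.42 within number 3. Its difference of number 3 minus number 1 was -1.50 in the controls and -0.75 in the knockouts, on the log2 scale.

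**Figure D3:**
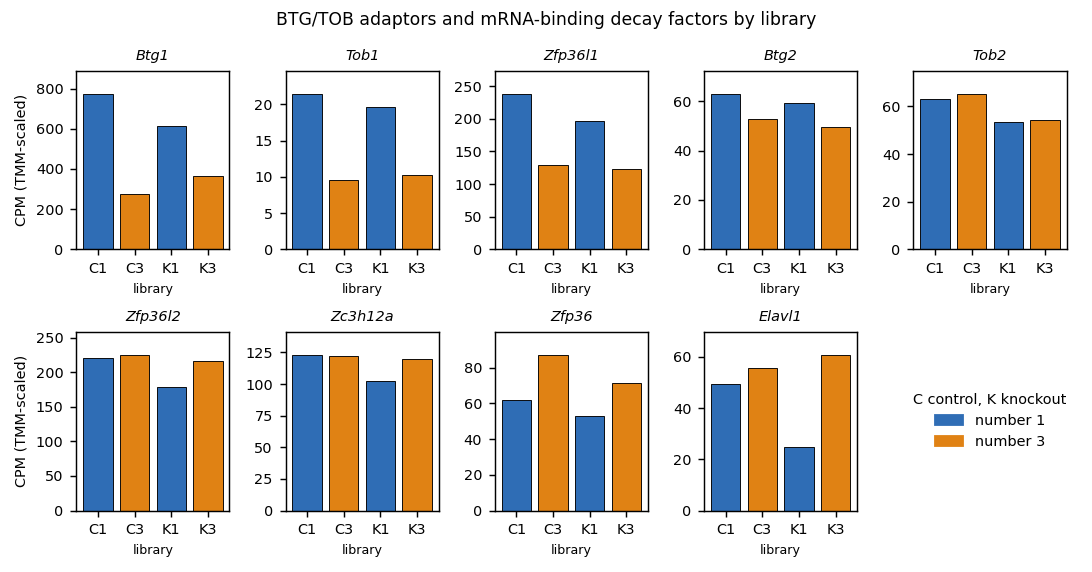
Level of the 4 BTG and TOB adaptors and the 5 AU-rich element and stem-loop binding proteins in each library (CPM, TMM-scaled, each axis from 0); each bar is 1 library, coloured by its number. Btg1, Tob1 and Zfp36l1 are higher in both libraries numbered 1, Tob2 is lower in both knockouts, and Elavl1 has 1 low library, knockout 1. None of these genes passed edgeR's test by genotype or by number.

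The difference between library numbers was then fitted for the whole table with genotype as a term, a comparison added after the values had been seen and not one of the study's groups. In edgeR's test 70 genes were higher in the libraries numbered 3 (0.406%) and 52 lower (0.301%), and 0 of the 48 members were among them. At an unadjusted p under 0.05 there were 8 members and 3044 tested genes (17.6%). The largest member differences were lower in number 3: Btg1 at -1.12 ± 0.22 SE (edgeR adjusted p = 0.131), Tob1 at -1.05 ± 0.18 (0.103) and Zfp36l1 at -0.78 ± 0.13 (0.0974). Higher in number 3, from the largest, were Elavl1 at 0.72, Exosc1 at 0.60, Dcp1a at 0.56, Dis3 at 0.54, Exosc2 at 0.51, Parn at 0.46 and Zfp36 at 0.46. The members' median absolute difference was 0.167, below the 0.322 of all tested genes and the 0.228 of those in the members' range of FPKM. Both libraries numbered 3 stood above both numbered 1 for 19 members (39.6%, against 26.2% of tested genes) and below for 5 (10.4%, against 25.2%). Among the exosome genes 9 of 10 were above 0, with a median of 0.37, and 7 of 10 had groups apart. Nonsense-mediated decay genes had a median of 0.19 and decapping genes of 0.05.

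Other measures moved with the number as well. The 8 markers of dividing cells were each lower in both libraries numbered 3, summing to 328 and 417 CPM in the libraries numbered 1 and to 119 and 151 in those numbered 3, and the Xist and Ddx3y values given above also split by number. Of the 8 fibroblast markers, 6 were higher in number 3 and 2, Col3a1 and Lum, lower. By genotype the 8 fibroblast markers had log2 fold changes below 0, with a median of -0.56 and the same sign in both numbers, a median farther from 0 than any member's value, and none passed edgeR's test. The part of these markers in the member differences by number or genotype was not tested, and in bulk RNA fewer cells of a type and less RNA per cell cannot be told apart. Genotype and number were crossed in the design, so each genotype has 1 library of each number. Number cannot be told apart from sex as Xist and the Y-linked Ddx3y mark it, since both libraries of a number lie on the same side.

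**Figure D4:**
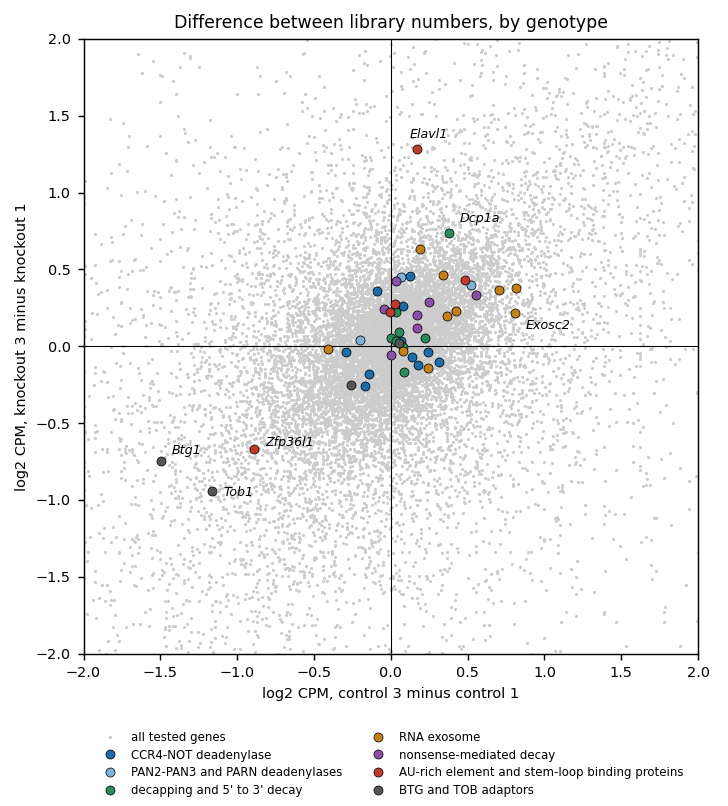
Difference between the libraries numbered 3 and 1 (log2 CPM) in the controls (horizontal axis) and in the knockouts (vertical axis); grey points are tested genes, large points the 48 decay genes by role. The axes end at 2 either way, which leaves out 2101 tested genes and no member. Btg1, Tob1 and Zfp36l1 lie low on both axes, most exosome genes high on both, and Elavl1 high on the knockout axis.

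The decay pathway beyond these genes was read from a further list. Of 64 further gene symbols of deadenylation, decapping, exosome cofactors and RNA-binding repressors, 61 were in the table and tested. The list held Tut4 and Tut7 also under their older symbols Zcchc11 and Zcchc6, which were not found. Pat1b was not found under that symbol either, so its values were not read. Among these genes 0 passed edgeR's test, 0 had an unadjusted p under 0.05, and DESeq2 called 0. Over the whole table the shares were 0%, 2.27% and 0.416%, in the same order. Of the 61, 32 lay above 0 and 29 below, with a median log2 fold change of 0.01. The 4 with the smallest p were N4bp1 (0.43 ± 0.22 SE), an RNA-cutting relative of regnase-1, Larp1 (0.46 ± 0.24), which binds capped messages of the translation machinery, Tnrc6a (-0.23 ± 0.16), the microRNA adaptor that recruits CCR4-NOT, and Tial1 (-0.20 ± 0.14), an AU-rich element binding protein. N4bp1 measured 329 and 251 CPM in the controls against 429 and 356 in the knockouts, and Larp1 at 204 and 145 against 217 and 263. In both genes the knockouts were higher. The 3 YTHDF readers, which carry m6A-marked transcripts to this machinery, had log2 fold changes of 0.26 (Ythdf1), 0.23 (Ythdf2) and 0.04 (Ythdf3), none past the test. Ythdf2 measured 68.4 and 70.4 CPM in the controls against 75.1 and 87.8 in the knockouts, with both knockouts higher.

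Transcripts that the machinery is known to degrade were read alongside. Of 22 AU-rich transcripts bound by tristetraprolin, 19 were tested: 7 lay above 0 and 12 below, and the median was -0.16 (-0.47 in the libraries numbered 1 and -0.17 in those numbered 3). None passed edgeR's or DESeq2's threshold, and 1, Ptgs2, had an unadjusted p under 0.05 in edgeR. Over the whole table the shares were 0% in edgeR, 0.416% in DESeq2 and 2.27% at that unadjusted p. Il1b, the cytokine interleukin-1 beta and the highest of them by FPKM, measured 2213 and 891 CPM in the controls against 1540 and 1239 in the knockouts. Ier3, an early stress-response gene, was at 184 and 86.6 against 133 and 75.8. Both had overlapping groups, with both libraries numbered 1 above both numbered 3. Of 12 transcripts known to be cleared by nonsense-mediated decay, all tested, 7 lay above 0 and 5 below, with a median of 0.04. Among these 12, 0 passed in edgeR or DESeq2 or at an unadjusted p under 0.05, beside the whole-table shares given above. The 2 highest by FPKM, the stress transcription factors Atf4 and Atf3, had log2 fold changes of 0.02 ± 0.52 SE and 0.28 ± 0.43, and both were higher in the libraries numbered 3.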

How the data were processed

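Poly(A) RNA libraries made with dUTP were read as pairs of 150 bases, per the labels' protocols. The submitters' processing notes name cutadapt 1.9, HISAT2 2.0.4, StringTie 1.3.4d, edgeR and DESeq2. The genome build, and whether counting used the strand, are not given in the sources used here. Exons of 21 members overlap a gene on the opposite strand. The authors deposited 1 table with an estimated count per gene and library, whole numbers that were not normalized, and the authors' own FPKM values. Between 38.7% and 39.5% of low counts were multiples of 4, so a read pair may have given several counts. Another 2 libraries in the table matched no sample by name, and their 4 columns were left out.

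Genes were filtered with filterByExpr, scaled by TMM, and tested with edgeR 4.0.16 (quasi-likelihood, two-sided, Benjamini-Hochberg over 17260 genes, threshold 0.05) in R 4.3.3, after a test on simulated data. Differences of log2 CPM between single libraries used a prior count of 2. Standard errors were derived from the fitted log2 fold change and edgeR's F statistic. Intervals (95%) use them with a t quantile at edgeR's degrees of freedom. DESeq2 1.42.0, limma 3.58.1 on log2(FPKM + pseudocount), other scalings, no filter, counts divided by 4, a replicate block and leaving out each library were alternatives. The members and gene lists were chosen with earlier results of these data known. Values in every library are given for the 12 members with the smallest p, the 2 with the highest FPKM in each role, and members named as chosen later. Marker lists of T, B and NK cells held 1 tested gene of 8, Ms4a1, at 0.19 to 0.256 CPM. Motifs were searched in GENCODE M21 (GRCm38), in which 41 of 48 members have the table's start and end. The deviations of same-numbered libraries from their group means correlated at 0.419. The value is the same for numbers 1 and 3 by construction, because the 2 deviations in a group are opposite. With no label on a shared litter or day the libraries were not taken as paired.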

Additional observations from a re-analysis of the deposited data

How the results depend on the processing

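The count of members called stayed at 0 in each of the 12 alternatives, and the members' median log2 fold change stayed between -0.10 (without control 1) and 0.10 (without knockout 1). DESeq2 called 74 genes where edgeR called 0. Both knockouts were above both controls for 7 members instead of 11 on FPKM with either pseudocount. Leaving out a library leaves 1 in its group, which is assumed to vary like the other and gives no count of groups apart. With the replicate block the median was -0.02, and Btg1 turned to 0.0423. On FPKM it turned to 0.032 (pseudocount 1) and 0.0339 (0.1). Of 312 values of single genes under the alternatives, 25 turned direction; the other 22 came from leaving out 1 library. Over the 4 such fits the log2 fold change ran from -0.175 to 0.104 for Cnot8, -0.349 to 0.122 for Pan3, -0.248 to 0.267 for Parn, -0.147 to 0.276 for Exosc3, -0.278 to 0.0847 for Exosc10, -0.133 to 0.0306 for Upf1 and -0.0461 to 0.177 for Smg1. It ran from -0.493 to 0.0062 for Zfp36, -0.573 to 0.317 for Zfp36l1, -1.07 to 0.227 for Elavl1, -0.655 to 0.844 for Btg1, -0.206 to 0.0535 for Btg2 and -0.588 to 0.644 for Tob1. Among the genes that kept their sign, the value moved by over 1.5 times for Cnot6l (0.217 to 0.459), Cnot7 (-0.475 to -0.181), Cnot3 (-0.4 to -0.0889), Cnot9 (0.0333 to 0.208), Dcp1a (-0.757 to -0.000495), Xrn2 (0.035 to 0.275), Exosc4 (0.119 to 0.531), Upf2 (0.0618 to 0.501) and Zfp36l2 (-0.319 to -0.0272). The cause was not tested. Intervals reached past 2-fold for 6 members without the replicate block and for 1 with it.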
